A study of Drosophila melanogaster with 21 samples.

Results

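Mitochondrial fatty acid oxidation was followed through 10 of its genes in fly heads across fasting and loss of Crtc, a coactivator of CREB-driven transcription. They were chosen by name: the carnitine shuttle genes whd, CPT2 and colt, the beta-oxidation enzyme genes Mcad, Arc42, Mtpalpha, Thiolase, yip2 and scu, and the nuclear receptor gene Hnf4. All 10 were found among the 17559 FlyBase identifiers that each of the 4 deposited tables lists, Thiolase under its annotated name Mtpbeta, and all 10 had an adjusted p in every table.

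The groups were fasted Crtc knockout heads (2 libraries), fed Crtc knockout heads (3 libraries), fasted control heads (2 libraries) and fed control heads (3 libraries). Knockout flies are given as "crtc ko" with no allele named, and control flies as w1118, which carries a mutant white gene (eye colour). Flies of every group were 3 to 5 days old and kept on standard media, fasting lasted 16 hours, with sex and flies per library not given. Polyadenylated RNA was sequenced, and 11 further samples of the 21 (CREB and Sik2 mutant heads, and bodies) are not analysed here. The targeted gene was read first: Crtc stood at a log2 fold of -4.88 ± 0.32 (SE) in fasted and -4.48 ± 0.26 in fed knockout over control heads per the authors' deposited tables (adjusted p = 5.32e-50 and 1.11e-63 by DESeq2).

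Fatty acids enter the mitochondrion as carnitine esters. Carnitine palmitoyltransferase 1, encoded by whd (withered), joins the acyl chain to carnitine at the outer membrane and is the controlled step of the pathway. The carrier encoded by colt (congested-like trachea) takes the ester across the inner membrane, and CPT2 returns the chain to coenzyme A. Each turn of the beta-oxidation spiral then dehydrogenates, hydrates, dehydrogenates again and cleaves the chain, giving acetyl-CoA. In flies Hnf4 is known as a fatty-acid-responsive nuclear receptor that is needed for the rise of lipid breakdown genes in starvation.

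The deposited tables give, for each gene, a base mean over all libraries of a comparison, a log2 fold with its standard error and p-values, with no value per library. The folds carry DESeq2's normal prior, which pulls them towards 0. The mean of each group was therefore solved from the base mean, the numbers of libraries and the fold with that prior taken out, and is called the implied mean below. It is in normalised counts on the scale of the table of fed heads and has no standard deviation. Each of the 4 groups is held by 2 tables, and the pair of implied means from the same libraries checks the calculation and which groups the tables hold: over 4701 genes whose base mean reached 100 in every table, the log2 ratio of the pair lay within 0.0108 of its median from the 1st to the 99th percentile, against 0.125 with the folds as deposited. The largest such deviation among the 10 genes was 0.0538, for Mcad in fed knockout heads.

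Per kilobase of annotated exon, which allows levels of different genes to be compared, scu stood highest in fed heads of both genotypes and Mcad lowest, with yip2 and colt next to scu. The implied mean of scu, a 3-hydroxyacyl-CoA dehydrogenase, was 287 per kb in fed knockout heads and 307 per kb in fed control heads. That of yip2, a 3-ketoacyl-CoA thiolase, was 260.5 per kb in fed knockout heads and 240.5 per kb in fed control heads. That of colt was 220.2 per kb in fed knockout heads and 242 per kb in fed control heads, so the carrier and both enzymes lay close together. Mcad, the medium-chain acyl-CoA dehydrogenase gene, had 8.90 per kb in fed knockout heads and 13.4 per kb in fed control heads. The spread between the highest and the lowest of the 9 enzyme and carrier genes was 20.5-fold in fasted and 32.2-fold in fed knockout heads, and 11.9-fold in fasted and 22.9-fold in fed control heads. The spreads in fed heads of both genotypes and in fasted knockout heads rest on Mcad as the lowest gene. Mcad is thinly counted and overlapped by a gene on the other strand, as given below. In fasted knockout heads yip2 moved to the first place at 1227 per kb, ahead of scu at 859 per kb, while in fasted control heads scu at 628 per kb and yip2 at 611 per kb differed little. Hnf4 had 56.5 per kb in fasted and 39.3 per kb in fed knockout heads, and 41.3 per kb in fasted and 43.6 per kb in fed control heads.

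**Figure D1:**
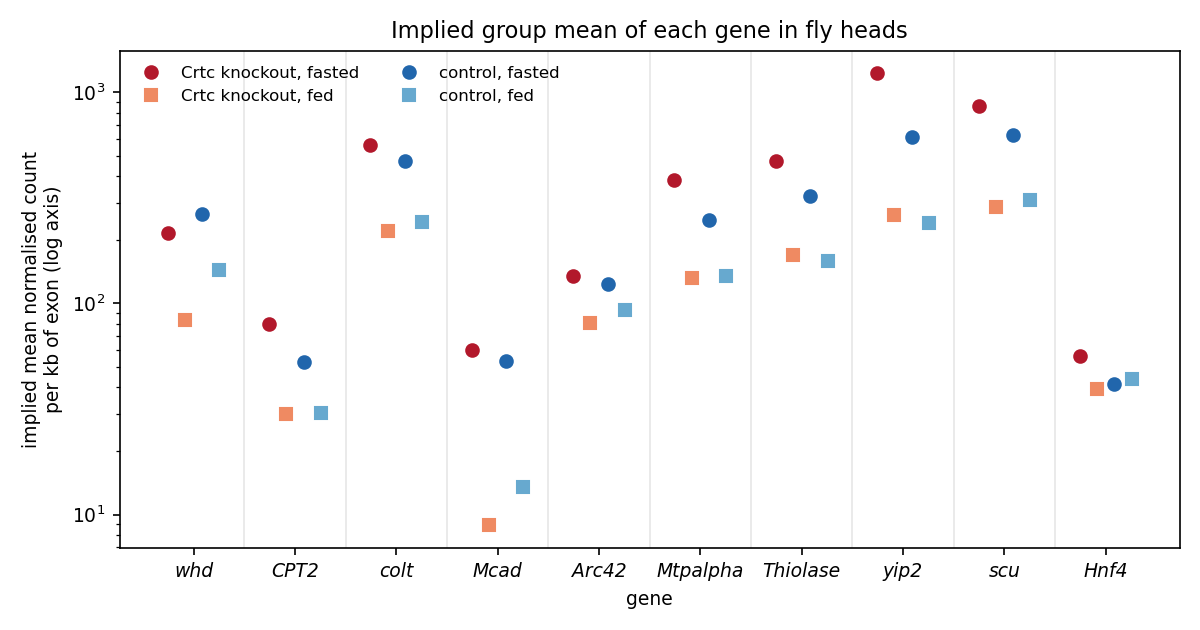
Implied group mean per kilobase of exon (log axis) of the 10 genes in fasted and fed Crtc knockout heads and fasted and fed control heads, solved from the deposited base means and folds, with no error bar because no value per library is given. For the 9 enzyme and carrier genes the fasted points lie above the fed points of the same genotype, and for whd both knockout points lie below the control point of the same state.

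The first question was how fasting changed these genes in each genotype. In Crtc knockout heads 8 of the 10 rose with fasting, 0 fell and 2 were not called, where 2.76% of all 10037 genes tested rose and 0.498% fell. In control heads 7 rose, 0 fell and 3 were not called, where 2.19% of 9361 genes rose and 1.65% fell. The median log2 fold of the 10 genes was 1.24 in knockout heads and 0.82 in control heads per the authors' deposited tables, against -0.02 and -0.01 over all genes tested. Summed over the 9 enzyme and carrier genes, the implied mean was 6508 in fasted and 2125 in fed knockout heads, and 4708 in fasted and 2362 in fed control heads.

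**Figure D2:**
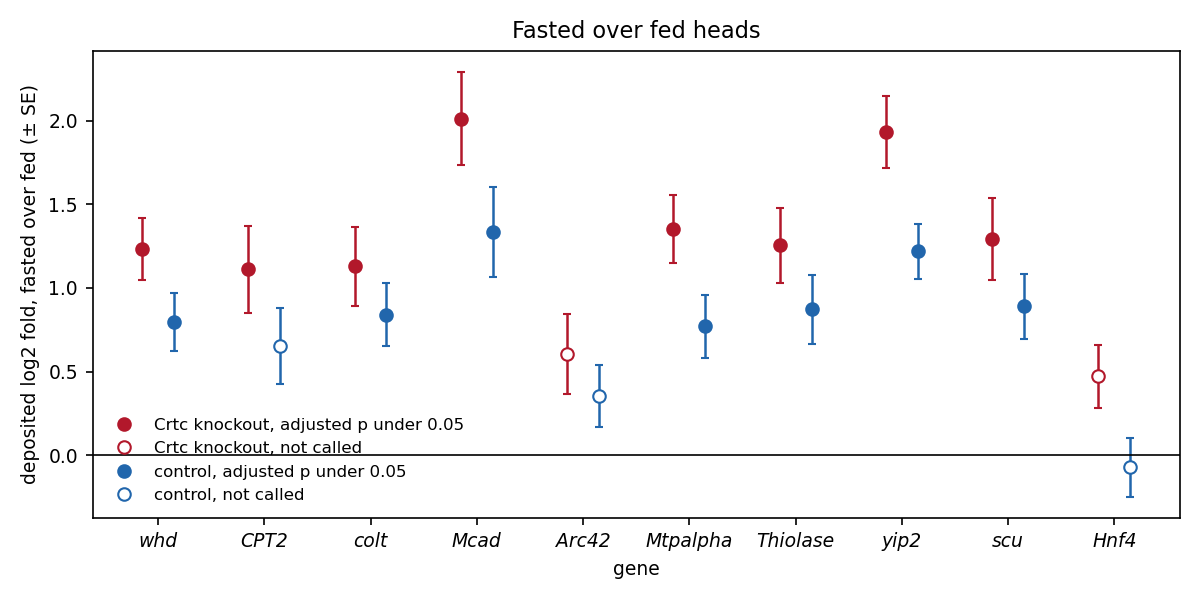
Deposited log2 fold (fasted over fed, ± SE) of the 10 genes in Crtc knockout and control heads, from 2 fasted and 3 fed libraries per genotype, with filled points where the adjusted p was under 0.05. The knockout point lies above the control point for each gene, with yip2 at 1.93 and 1.22, while Arc42 and Hnf4 are not called in either genotype.

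Of the carnitine shuttle, whd and colt rose in both genotypes and CPT2 in knockout heads. The implied mean of whd was 680.2 in fasted and 264 in fed knockout heads, and 843 in fasted and 456 in fed control heads. Its log2 fold with fasting was 1.23 ± 0.18 in knockout and 0.80 ± 0.17 in control heads per the authors' deposited tables (adjusted p = 4.24e-09 and 0.000233 by DESeq2). The fasted knockout mean of whd lay above its fed control mean and below its fasted control mean.

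The carrier gene colt had an implied mean of 833 in fasted and 326 in fed knockout heads, and 697 in fasted and 359 in fed control heads. It rose by a log2 fold of 1.13 ± 0.23 in knockout and 0.84 ± 0.19 in control heads per the authors' deposited tables (adjusted p = 0.000119 and 0.000379 by DESeq2). CPT2, the inner-membrane transferase, had an implied mean of 187 in fasted and 70.1 in fed knockout heads, and 124 in fasted and 70.8 in fed control heads. Its log2 fold was 1.11 ± 0.26 in knockout heads, a rise, and 0.65 ± 0.23 in control heads, not called, per the authors' deposited tables (adjusted p = 0.00102 and 0.0854 by DESeq2). Per kilobase, whd stood 2.70-fold above CPT2 in fasted and 2.79-fold above it in fed knockout heads, against 5.02-fold in fasted and 4.78-fold in fed control heads.

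The acyl-CoA dehydrogenases, which open each turn of the spiral, were unlike each other. Mcad had an implied mean of 87.5 in fasted and 13.0 in fed knockout heads, and 77.8 in fasted and 19.6 in fed control heads, ratios of 6.73 and 3.97. With the prior in place its log2 fold was 2.01 ± 0.28 in knockout and 1.34 ± 0.27 in control heads per the authors' deposited tables (adjusted p = 1.23e-10 and 4.39e-05 by DESeq2), the largest fold of the 10 genes in both genotypes. Mcad is thinly counted, and 92.6% of its annotated exon bases lie under exons of CG7457 on the other strand. Strand use in counting is not stated, so reads of the pair may have been left out or counted for either gene. CG7457 itself had base means of 24.3 and 26.7 and was not called, with log2 folds of 0.49 ± 0.30 in knockout and -0.15 ± 0.27 in control heads per the authors' deposited tables of fasting (adjusted p = 0.818 and 0.998 by DESeq2).

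Arc42, which encodes a short-chain acyl-CoA dehydrogenase, had an implied mean of 191 in fasted and 115 in fed knockout heads, and 175 in fasted and 132 in fed control heads. It was not called in either genotype, with log2 folds of 0.61 ± 0.24 in knockout and 0.35 ± 0.19 in control heads per the authors' deposited tables (adjusted p = 0.225 and 0.613 by DESeq2). Arc42 exceeded Mcad 9.10-fold per kilobase in fed knockout heads and 6.94-fold in fed control heads, but 2.25-fold in fasted knockout heads and 2.31-fold in fasted control heads. The thin counts and the exon overlap of Mcad limit these ratios. With folds as deposited, its implied mean was 19.3 in fed knockout and 26.7 in fed control heads, which lowers both fed ratios.

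Mtpalpha and Thiolase encode the alpha and beta subunits of the mitochondrial trifunctional protein, which hydrates, dehydrogenates and cleaves long acyl chains. Mtpalpha had an implied mean of 1101 in fasted and 381 in fed knockout heads, and 714 in fasted and 389 in fed control heads. Its log2 fold was 1.35 ± 0.20 in knockout and 0.77 ± 0.19 in control heads per the authors' deposited tables (adjusted p = 4.24e-09 and 0.00164 by DESeq2). Thiolase had an implied mean of 748 in fasted and 268 in fed knockout heads, and 516 in fasted and 253 in fed control heads. It rose by a log2 fold of 1.26 ± 0.23 in knockout and 0.87 ± 0.20 in control heads per the authors' deposited tables (adjusted p = 2.88e-06 and 0.000973 by DESeq2). Per kilobase the alpha subunit stood at 0.813 of the beta subunit in fasted and 0.784 in fed knockout heads, and at 0.764 in fasted and 0.849 in fed control heads. The ratio of the subunits thus moved far less than either subunit did.

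The later steps held the gene with the lowest adjusted p in both fasting tables among the 10. That gene, yip2, had an implied mean of 1706 in fasted and 362 in fed knockout heads, and 849.7 in fasted and 334 in fed control heads. Its log2 fold was 1.93 ± 0.22 in knockout and 1.22 ± 0.17 in control heads per the authors' deposited tables (adjusted p = 1.08e-16 and 3.5e-11 by DESeq2). Set against the trifunctional beta subunit, which also carries a thiolase activity, yip2 stood 2.61-fold higher per kilobase in fasted and 1.55-fold higher in fed knockout heads, and 1.89-fold in fasted and 1.52-fold in fed control heads. The dehydrogenase gene scu, whose product also acts in isoleucine breakdown and in mitochondrial tRNA processing, had an implied mean of 974 in fasted and 325 in fed knockout heads, and 712 in fasted and 348 in fed control heads. It rose by 1.29 ± 0.24 in knockout and 0.89 ± 0.20 in control heads on the log2 scale per the authors' deposited tables (adjusted p = 1.29e-05 and 0.000292 by DESeq2).

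Hnf4, the regulator among the 10, had an implied mean of 304 in fasted and 211 in fed knockout heads, and 222 in fasted and 235 in fed control heads. It was not called in either genotype, with log2 folds of 0.47 ± 0.19 in knockout and -0.07 ± 0.18 in control heads per the authors' deposited tables (adjusted p = 0.232 and 0.998 by DESeq2).

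Markers of fat body and muscle, tissues where these enzymes are known to be active, were read in the same libraries. In bulk heads fewer cells of a type and less RNA per cell cannot be told apart. Fat body markers were higher for 0 and lower for 3 of 11 tested genes in knockout heads, and higher for 0 and lower for 6 of 10 in control heads. The summed implied mean of the 6 fat body markers whose base mean reached 10 in each fasting table was 9779 in fasted and 13117 in fed knockout heads, and 4531 in fasted and 12343 in fed control heads, with Fbp2 at a base mean under 1. Most of the fat body sum was apolpp, whose base mean was 8980 in the knockout and 9619 in the control fasting comparison. Muscle markers were called for 0 of 14 in knockout heads and were lower for 5 of 13 in control heads. Their sum over 12 genes was 18604 in fasted and 18966 in fed knockout heads, and 10912 in fasted and 17125 in fed control heads, with TpnC4 at a base mean under 1. In control heads the median fold of the 10 genes was thus above 0 while those of the fat body and muscle markers were -1.03 and -0.52 on the log2 scale. In knockout heads the marker medians were nearer 0, at -0.35 for fat body and -0.02 for muscle. The part of tissue content in the size of the rise was not tested. Neuronal markers were called for 0 of 9 in either genotype, and glial markers were higher for 3 and lower for 0 of 11 in knockout heads and higher for 0 and lower for 1 of 11 in control heads. Photoreceptor markers were called for 0 of 12 and tracheal and cuticle markers for 0 of 3 in either genotype, hemocyte markers were lower for 1 of 7 in each, and oenocyte markers were called for 0 of 4 in knockout heads and were higher for 1 of 4 in control heads. That oenocyte call was Desat1, which is also counted among fatty acid synthesis genes below.

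In the sample descriptions, fed library 3 of either genotype stands under another of the authors' expression tables than the first and second, one with no fasted library; they name no batch or date. It could not be left out of the fasting comparisons, which were made without values per library, so whatever may set those libraries apart cannot be told apart from part of the fasting response. Fasted knockout against fasted control heads uses neither of them, and fed knockout against fed control heads holds 1 from each genotype. Nothing in the labels shows that replicate libraries were made from different flies, and the p-values therefore reflect library spread that could be technical only.

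The second question was how the genes differed between Crtc knockout and control heads within a feeding state. A shared genetic background of the knockout and control stocks is not stated. Loss of Crtc therefore cannot be told apart from other differences between the stocks. In fasted heads 2 of the 10, yip2 and Mtpalpha, were higher in knockout than in control, 0 were lower and 8 were not called, where 3.43% of 9917 genes were higher and 1.97% lower. In fed heads 0 were higher (2.27% of 10285 genes) and 1, whd, was lower (2.49% of all genes), with 9 not called. The median log2 fold of the 10 genes was 0.39 in fasted and -0.10 in fed heads per the authors' deposited tables, against -0.02 and 0.00 over all genes tested.

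**Figure D3:**
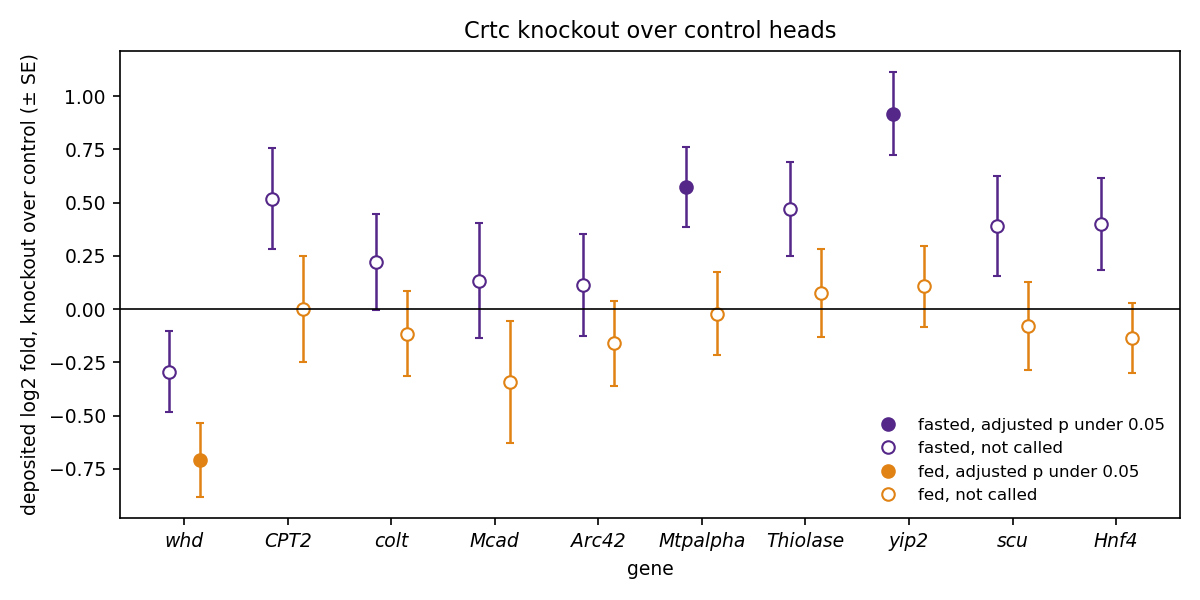
Deposited log2 fold (Crtc knockout over control, ± SE) of the 10 genes in fasted heads (2 libraries each) and fed heads (3 libraries each), with filled points where the adjusted p was under 0.05. Points of fed heads lie between -0.34 and 0.11 except for whd at -0.71, and points of fasted heads lie above 0 except for whd at -0.29.

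The carnitine palmitoyltransferase gene whd was lower in fed knockout heads, with a log2 fold of -0.71 ± 0.17 per the authors' deposited table (adjusted p = 0.00168 by DESeq2), a ratio of implied means of 0.579. In fasted heads it stood at -0.29 ± 0.19 and was not called per the authors' deposited table (adjusted p = 0.699 by DESeq2). The other 9 genes lay between -0.34 and 0.11 in fed heads per the authors' deposited table, with Mcad lowest at -0.34 ± 0.29 (adjusted p = 0.939 by DESeq2).

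In fasted heads yip2 was higher in knockout by 0.92 ± 0.19 on the log2 scale per the authors' deposited table (adjusted p = 0.000132 by DESeq2), a ratio of implied means of 2.01. Mtpalpha was higher by 0.57 ± 0.19 per that authors' deposited table (adjusted p = 0.0451 by DESeq2), a ratio of 1.54. The Mtpalpha call was lost with no filter on low counts (adjusted p = 0.0600). CPT2 at 0.52 ± 0.24, Thiolase at 0.47 ± 0.22, Hnf4 at 0.40 ± 0.22 and scu at 0.39 ± 0.23 were not called per the authors' deposited table (adjusted p = 0.293, 0.319, 0.486 and 0.614 by DESeq2). The values of colt, Mcad and Arc42 were 0.22 ± 0.22, 0.13 ± 0.27 and 0.11 ± 0.24 per the authors' deposited table.

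Markers of head tissues differed between the genotypes as well. In fasted heads 10 of 14 muscle markers were higher and 1 lower in knockout, and 6 of 11 fat body markers were higher and 1 lower. In fed heads 2 of 14 muscle markers were higher and 1 lower, 3 of 12 fat body markers were higher and 3 lower, and 4 of 11 glial markers were lower. The glial sum over 11 markers was 8645 in fasted and 7563 in fed knockout heads, and 8141 in fasted and 10017 in fed control heads. Photoreceptor markers were higher for 3 and lower for 1 of 12 in fasted heads and higher for 4 and lower for 0 of 12 in fed heads, led by the rhodopsin gene Rh6 at 3.55 ± 0.20 and 3.85 ± 0.18 per the authors' deposited tables (adjusted p = 1.55e-66 and 3.37e-102 by DESeq2). Their sum over 12 markers was 311798 in fasted and 335758 in fed knockout heads, and 250077 in fasted and 216898 in fed control heads. Hemocyte markers were called for 0 of 6 in fasted heads and were higher for 2 of 7 in fed heads, and oenocyte markers were lower for 1 of 4 in fasted and higher for 1 of 4 in fed heads. These oenocyte calls were Desat1 and FASN2, which are also counted among fatty acid synthesis genes below. The listed oenocyte genes desatF and eloF had base means under 1. Neuronal markers (0 of 9 in each state) and tracheal and cuticle markers (0 of 3 in fasted and 0 of 4 in fed heads) were not called. The part of these tissues in the values of whd, yip2 and Mtpalpha was not tested.

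The third question was whether the fasting response differed between the genotypes. The difference of the log2 folds, knockout minus control, was tested for 8474 genes whose base mean reached 10 in each fasting table; these tables share no library. It passed for 0 of the 10 genes (smallest adjusted p = 0.467, two-sided normal test with Benjamini-Hochberg adjustment), where it passed for 0.802% of all genes (0.696% higher and 0.106% lower in knockout heads), and 3 of the 10 had an unadjusted p under 0.05, against 4.12% of all genes. The difference lay above 0 for all 10, between 0.25 for Arc42 and 0.71 for yip2, with a median of 0.45, whereas 48.2% of all genes lay above 0 with a median of -0.01. The 3 with the smallest p were yip2 at 0.71 ± 0.27 (unadjusted p = 0.00864, adjusted p = 0.467), Mtpalpha at 0.58 ± 0.28 (unadjusted p = 0.0345) and Hnf4 at 0.54 ± 0.26 (unadjusted p = 0.0350). Mcad followed at 0.68 ± 0.39, CPT2 at 0.46 ± 0.34 and whd at 0.44 ± 0.25, all with intervals that include 0. Taken from the other pair of tables, as fasted minus fed of knockout over control, the difference was 0.81 for yip2, 0.59 for Mtpalpha and 0.54 for Hnf4.

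**Figure D4:**
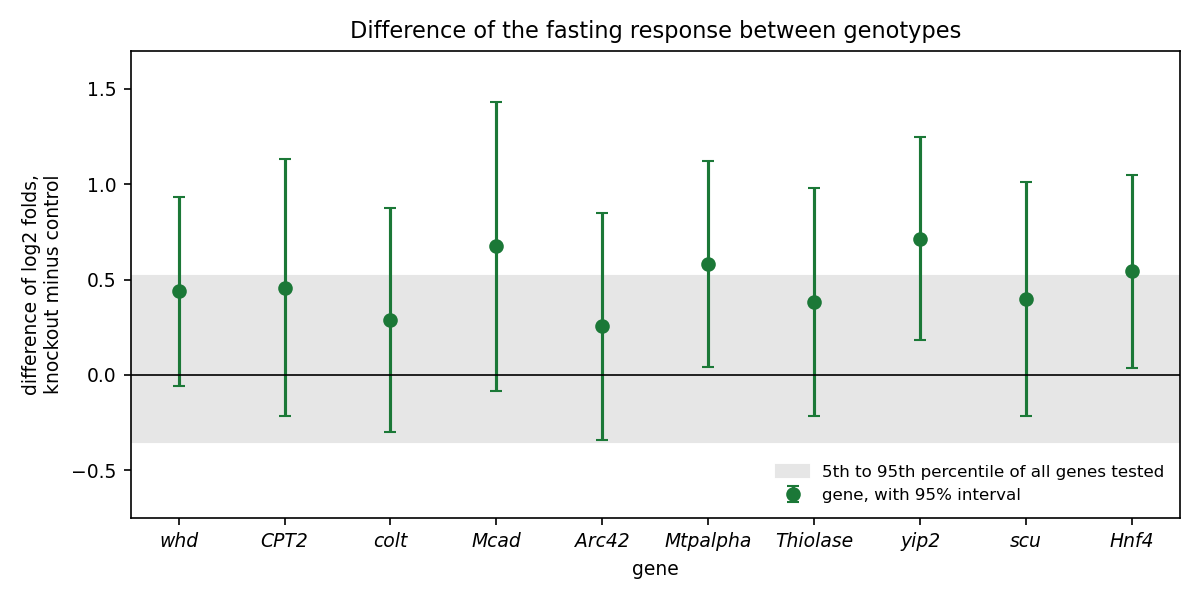
Difference of the fasting response (log2 fold in knockout minus log2 fold in control heads) of the 10 genes with 95% intervals, over a band from the 5th to the 95th percentile of all 8474 genes tested (-0.35 to 0.52). The intervals of Mtpalpha, yip2 and Hnf4 lie above 0, and none of the 10 differences passed after adjustment over all genes.

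In the same comparison fat body markers were higher for 2 and lower for 0 of 6, muscle markers were higher for 1 and lower for 0 of 12 and glial markers were higher for 1 and lower for 0 of 11. Their medians were 0.79, 0.54 and 0.57, above the 0.45 of the 10 genes. The difference lay above 0 for 4 of 6 fat body, 12 of 12 muscle and 11 of 11 glial markers, so a shared sign was not particular to the 10 genes. The photoreceptor, neuronal, oenocyte, hemocyte, and tracheal and cuticle markers had 0 calls, with 12, 9, 3, 5 and 2 tested. In that order the medians were -0.20, -0.12, 0.62, -0.08 and -0.19. Among the related lists below, the difference lay above 0 for 6 of 7 peroxisomal genes (median 0.53). It did so for 6 of 8 other acyl-CoA dehydrogenase and electron transfer genes (median 0.21) and 7 of 12 other hydratases, isomerases and thiolases (median 0.05). Whether tissue content contributed to the differences of the 10 genes was not tested.

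Lists of related genes place the 10 within fat metabolism; 65 of 71 listed genes were matched to an identifier in the tables. Other acyl-CoA dehydrogenases and electron transfer genes rose for 6 and fell for 0 of 8 in knockout heads, and rose for 4 and fell for 0 of 8 in control heads, with medians of 0.87 and 0.55. CG7461, annotated as the very-long-chain enzyme Acadvl, rose by 1.15 ± 0.20 in knockout and 0.61 ± 0.18 in control heads per the authors' deposited tables (adjusted p = 1.01e-06 and 0.0160 by DESeq2). CG9547, a glutaryl-CoA dehydrogenase of lysine breakdown, rose by 0.97 ± 0.26 in knockout and 1.33 ± 0.21 in control heads per the authors' deposited tables (adjusted p = 0.00887 and 3.5e-08 by DESeq2). CG6638, an isovaleryl-CoA dehydrogenase of leucine breakdown, rose by 1.00 ± 0.28 in knockout heads per the authors' deposited table (adjusted p = 0.0146 by DESeq2). CG3902 rose by 0.90 ± 0.21 in knockout and 1.04 ± 0.17 in control heads per the authors' deposited tables (adjusted p = 0.00144 and 1.75e-07 by DESeq2). The electron transfer flavoprotein alpha subunit gene wal rose by 0.84 ± 0.21 in knockout and 0.79 ± 0.16 in control heads per the authors' deposited tables (adjusted p = 0.00251 and 9.47e-05 by DESeq2).

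Other hydratases, isomerases and thiolases rose for 3 and fell for 1 of 12 in knockout heads, and rose for 2 and fell for 0 of 12 in control heads, with medians of 0.38 and 0.30. CG9577 and CG4598 rose by 1.18 ± 0.25 and 1.14 ± 0.22, and Had2 fell, at -1.35 ± 0.30, per the authors' deposited table of knockout fasting (adjusted p = 0.000119, 1.92e-05 and 0.000608 by DESeq2). CG6543, annotated as the short-chain enoyl-CoA hydratase Echs1, rose by 0.79 ± 0.21 and CG4598 by 0.69 ± 0.21 per the authors' deposited table of control fasting (adjusted p = 0.0051 and 0.0362 by DESeq2), and Echs1 rose among the 3 in knockout heads as well, by 1.07 ± 0.23. In fasted knockout over control heads CG10932, annotated as the acetyl-CoA acetyltransferase Acat1, was the 1 called gene of 12, higher by 0.92 ± 0.23 per the authors' deposited table (adjusted p = 0.00207 by DESeq2).

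Peroxisomal beta-oxidation genes rose for 4 and fell for 0 of 8 in knockout heads, and rose for 1 and fell for 0 of 8 in control heads, with medians of 0.66 and 0.14. The acyl-CoA oxidase gene Acox57D-p rose by 1.60 ± 0.21 in knockout and 0.78 ± 0.20 in control heads per the authors' deposited tables (adjusted p = 5.13e-12 and 0.00328 by DESeq2). ScpX rose by 0.77 ± 0.19 in knockout heads per the authors' deposited table (adjusted p = 0.00365 by DESeq2). In fasted heads 2 of the 8 genes were higher and 0 lower in knockout, among them Acox57D-p by 0.72 ± 0.22 per the authors' deposited table (adjusted p = 0.0226 by DESeq2).

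Carnitine handling genes beside the shuttle rose for 1 and fell for 0 of 5 in each genotype. That gene was CG12428, annotated as CROT, the peroxisomal carnitine octanoyltransferase, which rose by 2.10 ± 0.20 in knockout and 0.95 ± 0.20 in control heads per the authors' deposited tables (adjusted p = 4.33e-24 and 9.49e-05 by DESeq2). Its fasting response differed between the genotypes by 1.15 ± 0.28 (adjusted p = 0.00731 by the normal test of the difference). In fasted heads CG12428 was higher in knockout by 1.16 ± 0.21 per the authors' deposited table (adjusted p = 2.67e-06 by DESeq2). CarT, counted among these 5 although it is a carcinine and not a carnitine transporter gene, was higher in fed knockout heads. Its log2 fold was 0.54 ± 0.17 per the authors' deposited table (adjusted p = 0.0411 by DESeq2).

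**Figure D5:**
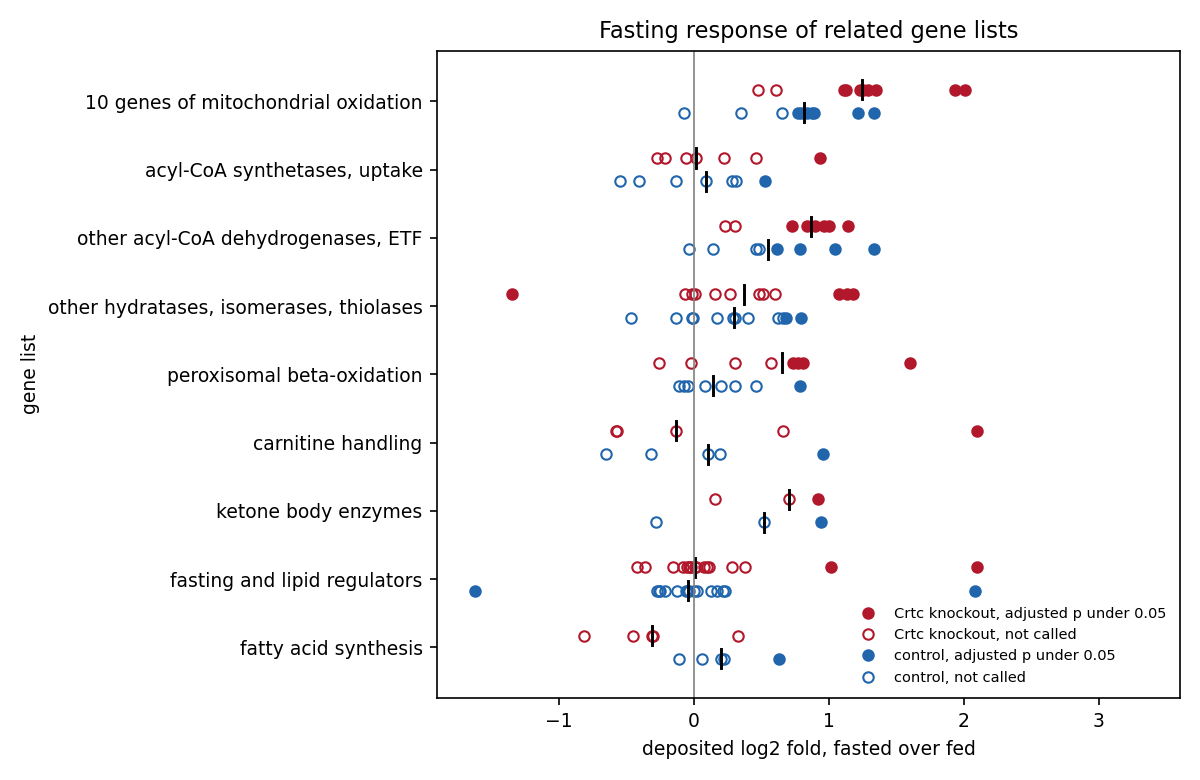
Deposited log2 fold (fasted over fed) of the 10 genes and of 8 related lists in Crtc knockout heads (upper row of each pair) and control heads (lower row), with filled points where the adjusted p was under 0.05 and a bar at the median. The 10 genes have medians of 1.24 and 0.82, other acyl-CoA dehydrogenases 0.87 and 0.55, and fatty acid synthesis genes -0.31 and 0.20.

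Acyl-CoA synthetases and fatty acid uptake genes rose for 1 and fell for 0 of 7 in each genotype. That gene was pdgy, an acyl-CoA synthetase gene, at 0.93 ± 0.21 in knockout and 0.52 ± 0.15 in control heads per the authors' deposited tables (adjusted p = 0.000608 and 0.0209 by DESeq2). Ketone body enzymes rose for 1 and fell for 0 of 3 in each genotype, with CG1140, annotated as SCOT, at 0.92 ± 0.24 in knockout and 0.94 ± 0.21 in control heads per the authors' deposited tables (adjusted p = 0.00599 and 0.000305 by DESeq2). Fatty acid synthesis genes rose for 0 and fell for 0 of 5 in knockout heads, and rose for 1 and fell for 0 of 5 in control heads, where the desaturase gene Desat1 rose by 0.63 ± 0.18 per the authors' deposited table (adjusted p = 0.0179 by DESeq2). In fasted heads Desat1 and ACC, the acetyl-CoA carboxylase that makes malonyl-CoA, an inhibitor of carnitine palmitoyltransferase 1, were lower in knockout, with log2 folds of -1.44 ± 0.19 and -0.71 ± 0.19 per the authors' deposited table (adjusted p = 1.46e-11 and 0.00477 by DESeq2).

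Among fasting and lipid regulators 2 of 17 rose and 0 fell in knockout heads, and 1 of 16 rose and 1 fell in control heads. The triglyceride lipase gene bmm rose by 2.10 ± 0.18 in knockout and 2.08 ± 0.16 in control heads per the authors' deposited tables (adjusted p = 1.85e-27 and 9.49e-34 by DESeq2). The adipokinetic hormone receptor gene AkhR rose by 1.01 ± 0.21 in knockout heads per the authors' deposited table, and the transcription factor gene sug stood at -1.62 ± 0.23 in control heads per the authors' deposited table (adjusted p = 7.78e-05 and 2.04e-10 by DESeq2). Both were higher in fasted knockout than fasted control heads, AkhR by 1.27 ± 0.23 and sug by 1.17 ± 0.28 per the authors' deposited table (adjusted p = 1.41e-06 and 0.00126 by DESeq2). The difference of the fasting response, knockout minus control, was 1.27 ± 0.29 for AkhR and 1.63 ± 0.32 for sug (adjusted p = 0.00279 and 0.000171 by the normal test of the difference). Neither passed with the t distribution with 6 degrees of freedom. Among regulators known in other settings, srl, ERR and foxo were not called in either fasting table.

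The genes most like the 9 enzyme and carrier genes were found by the distance of 3 deposited folds (knockout fasting, control fasting and fed knockout over control) from the median of the 9, over the same 4701 genes. The 5 nearest outside the 10 were Lsd-2 at a distance of 0.164, Gs1 at 0.164, Echs1 at 0.190, GstT4 at 0.205 and Prat2 at 0.206 on the log2 scale. Lsd-2 encodes a perilipin of the lipid droplet and rose by 1.23 ± 0.18 in knockout and 0.87 ± 0.16 in control heads per the authors' deposited tables (adjusted p = 7.06e-10 and 2.7e-06 by DESeq2). Gs1 encodes a glutamine synthetase and rose by 1.24 ± 0.18 in knockout and 0.68 ± 0.15 in control heads per the authors' deposited tables (adjusted p = 1.5e-09 and 0.000271 by DESeq2). These distances describe likeness of deposited folds and were not tested. Because the genes were picked by their folds, the rise of Lsd-2 and Gs1 follows from the choice and is no separate evidence.

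In the Ensembl annotation BDGP6.54 the 10 genes are protein-coding and lie on 5 chromosome arms. On 2L lie colt (2768590 to 2770069, minus strand, 1 exon), Hnf4 (8687226 to 8709611, minus strand, 11 merged exons), Mtpalpha (9573563 to 9576769, minus strand, 5 merged exons) and yip2 (9915253 to 9917220, plus strand, 4 merged exons). On 2R lie whd (10469473 to 10478567, minus strand, 11 merged exons) and Thiolase (23866648 to 23868603, minus strand, 4 merged exons). CPT2 (2981022 to 2983551) and Mcad (7719350 to 7721472) are on the plus strand of 3L, Arc42 (19877737 to 19879309) on the plus strand of 3R and scu (18091259 to 18092853) on the plus strand of X, each with 3 merged exons. Outside Mcad, exons of other genes on the opposite strand cover 5.73% of whd exon bases for an antisense RNA and 5.39% for CG11777, 3.35% of Hnf4 exon bases, and at most 1.55% for colt, Mtpalpha and Thiolase.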

How the data were processed

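Head RNA of fasted and fed Crtc knockout and control flies was compared in 4 tables of the authors. Per the submitters' processing notes, TopHat2, STAR, Cuffdiff, DESeq2 and the builds dm3 and dm6 were named, with no version or role, so the aligner and build behind the tables are not given in the sources used here. Per the file headers, each table holds a base mean, which is a signal of normalised counts averaged over libraries, while library depth cannot be had from them. Summed over identifiers, base means came to 3572598, 4087577, 4405826 and 3465010 for knockout fasting, control fasting, fasted and fed knockout over control. The authors' deposited log2 folds and standard errors come with a Wald score and p-values, and genes left out of the authors' adjustment have an empty adjusted p. Direction was checked on Crtc and on the implied means shared by 2 tables. Tables name libraries by other numbers than the labels do, and the match of implied means between tables is the check of which groups they hold.

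The prior was taken out from the ceiling of the standard errors (0.315, 0.285, 0.359 and 0.288, in the order above), as a normal prior on the fold gives it. The difference of 2 folds was divided by the root of the summed squared standard errors, with scipy 1.17.1 in Python 3.11.15. It was run on simulated data whose normal noise was drawn with these same standard errors. That run therefore checks the calculation only and cannot show whether the standard errors fit the real data. Genes were called at an adjusted p under 0.05. Symbols came from an Ensembl name table and RefSeq synonyms, and coordinates from the Ensembl release 115 annotation BDGP6.54, which may not be the authors' build. No values per library were used, so no replicate was left out. The 10 genes and the lists were chosen with earlier results of these data known. All 10 were named, with up to 3 called genes of largest fold per list and comparison, and Crtc, CG7457, srl, ERR and foxo were named after their values were seen where that rule does not reach them. Of the genes this rule names, 1 of the peroxisomal list is not reported here. Lists covered acyl-CoA synthetases, other dehydrogenases, other hydratases and thiolases, peroxisomal oxidation, carnitine handling, ketone bodies, regulators, fatty acid synthesis, and markers of fat body, muscle, glia, neurons, photoreceptors, oenocytes, hemocytes, and trachea and cuticle.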

Additional observations from a re-analysis of the deposited data

How the results depend on the processing

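With the Wald scores divided by their central spread over all genes (0.795 in knockout fasting, 0.741 in control fasting), which takes most genes as unchanged, Arc42 and Hnf4 were also called in knockout fasting (adjusted p = 0.0284 and 0.0301) and CPT2 in control fasting (adjusted p = 0.00212) and in fasted knockout over control heads (adjusted p = 0.0466). With the score of the difference divided by its spread of 0.671, 2 of the 10 genes passed, yip2 at an adjusted p of 0.00497 and Mtpalpha at 0.0497, among 236 positive and 44 negative calls over all genes, while 0 of the 10 passed under 6 other settings (smallest adjusted p of each from 0.217 to 1.00). The t distribution with 6 degrees of freedom gave 0 calls over all genes for the difference, where the normal test gave 68. In fasted knockout over control heads the count of called genes was 1 in place of 2 with no filter on low counts and at an adjusted p under 0.01, Mtpalpha being lost in each. Mcad has a base mean under 50 in knockout fasting and was not tested there at that minimum. All other counts of called genes among the 10 stayed within 1.5 times the main count, and no fold or difference of the 10 changed sign with a call. With folds as deposited, the implied mean of Mcad was 19.3 in fed knockout and 26.7 in fed control heads, and that of yip2 423 in fed knockout heads. No paired analysis was possible because the tables hold no values per library, and for the same reason no library could be left out.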

Other observations

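Among the genes called in the related lists between fed knockout and control heads were Had2, CG12512 and FASN2, a fatty acid synthase gene. Had2 was higher in fed knockout heads by 1.50 ± 0.27 on the log2 scale per the authors' deposited table (adjusted p = 2.7e-06 by DESeq2), and in fasted heads it stood at 0.46 ± 0.35 per the authors' deposited table, not called. CG12512, annotated as the acyl-CoA synthetase Acsf2, was lower in knockout heads in both states, with log2 folds of -1.34 ± 0.27 in fasted and -1.20 ± 0.21 in fed flies per the authors' deposited tables (adjusted p = 5.12e-05 and 1.23e-06 by DESeq2). FASN2 was higher in fed knockout heads by 1.12 ± 0.29 per the authors' deposited table (adjusted p = 0.00355 by DESeq2), at a base mean of 12.0.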
